A study of Mus musculus with 6 samples.

Results

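The genes described here are those of the epidermal differentiation complex and the S100A calcium-binding proteins, a cluster on mouse chromosome 3. They were taken from the symbols of the array's probe annotation: every symbol starting with Sprr, Lce or S100a, together with Lor, Ivl, Hrnr, Rptn and Tchh. This gave 44 genes on 50 probes, out of 27804 genes on 41174 probes in the whole table, where a probe without a symbol counted as 1 gene. The brightest probe by the mean of the 6 columns stood for each gene. All 44 genes had a position on chromosome 3 in the order of the RefSeq annotation. Flg, Flg2 and Crnn matched no probe by symbol and were not analysed under those names. The study compared medullary thymic epithelial cells (mTECs) of MBD1 WT and MBD1 KO mice aged 30 days, with 3 arrays of each genotype. The cells were sorted from thymus as EPCAM+ and Class II+ cells that were negative for CD45, CD11c, Ly51 and DAPI, and their RNA was amplified across the whole transcriptome before labelling with a single dye. The submitters describe 4 biological replicates of each genotype, of which 1 of each was removed after quality control. Which part of the gene was deleted, the strain background and the number of mice per array are not stated in the labels.

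The epidermal differentiation complex holds genes switched on as keratinocytes of the skin cornify. Loricrin, involucrin, the small proline-rich proteins (Sprr) and the late cornified envelope proteins (Lce) are crosslinked under the plasma membrane into the cornified envelope, and the fused S100 proteins such as hornerin and trichohyalin carry an S100 domain joined to a long repeat. The S100A proteins of the same locus are small calcium-binding dimers with uses in many cell types. In the thymus, mTECs display genes of other tissues to developing T cells, and some mTECs go on to cornify in Hassall's corpuscles, where they make proteins of this locus. MBD1 binds methylated CG dinucleotides in DNA and is known as a transcriptional repressor.

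Because MBD1 binds methylated CG dinucleotides, the promoters of these genes are described first by how many CG dinucleotides they hold. A promoter here is 300 bases, from 250 before to 50 after the transcription start in RefSeq (build GRCm38.p6). Of the 44 genes, 40 matched the promoter table, with 44 promoters because 2 genes have several starts. Sprr2g, Lce1f, S100a14 and S100a10 had no entry. The 7 promoters printed below show the range of the locus: Ivl, Hrnr, Lce1c and Sprr2h belong to genes that read lower in the knockout columns, Sprr2b to a gene with nearly equal values, S100a4 to a gene that read higher, and S100a11 has the most CG dinucleotides of all members. Capitals mark CG, TATAAA on either strand (the TATA box sequence) and TGANTCA (a sequence that AP-1 factors recognise). They are written 5′ to 3′ on the gene's strand and lie at chr3:92573686-92573985 (minus strand), chr3:93319499-93319798, chr3:92678997-92679296, chr3:92385435-92385734, chr3:92316455-92316754, chr3:90603520-90603819 and chr3:93520246-93520545 (all plus strand), in the order below.
Ivl: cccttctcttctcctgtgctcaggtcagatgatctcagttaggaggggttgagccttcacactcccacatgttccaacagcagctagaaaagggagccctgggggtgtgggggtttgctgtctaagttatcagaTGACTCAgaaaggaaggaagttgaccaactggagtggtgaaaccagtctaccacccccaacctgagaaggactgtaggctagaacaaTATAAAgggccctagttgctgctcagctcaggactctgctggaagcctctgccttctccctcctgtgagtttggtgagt
Hrnr: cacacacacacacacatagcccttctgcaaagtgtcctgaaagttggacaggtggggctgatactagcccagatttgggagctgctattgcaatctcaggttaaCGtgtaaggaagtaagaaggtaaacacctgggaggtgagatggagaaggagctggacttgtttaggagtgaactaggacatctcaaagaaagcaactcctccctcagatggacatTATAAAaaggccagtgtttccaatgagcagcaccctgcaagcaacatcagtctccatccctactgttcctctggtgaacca
Lce1c: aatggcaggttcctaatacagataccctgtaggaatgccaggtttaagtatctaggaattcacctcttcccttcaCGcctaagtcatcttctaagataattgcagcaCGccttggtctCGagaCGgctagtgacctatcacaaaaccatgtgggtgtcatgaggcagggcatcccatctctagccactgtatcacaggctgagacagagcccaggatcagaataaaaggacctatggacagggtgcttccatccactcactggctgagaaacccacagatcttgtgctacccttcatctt
Sprr2h: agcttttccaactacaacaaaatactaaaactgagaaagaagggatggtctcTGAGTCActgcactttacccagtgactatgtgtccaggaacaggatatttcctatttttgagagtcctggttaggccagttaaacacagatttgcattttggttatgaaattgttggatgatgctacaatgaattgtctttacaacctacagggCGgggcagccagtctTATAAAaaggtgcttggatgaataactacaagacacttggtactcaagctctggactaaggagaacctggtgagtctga
Sprr2b: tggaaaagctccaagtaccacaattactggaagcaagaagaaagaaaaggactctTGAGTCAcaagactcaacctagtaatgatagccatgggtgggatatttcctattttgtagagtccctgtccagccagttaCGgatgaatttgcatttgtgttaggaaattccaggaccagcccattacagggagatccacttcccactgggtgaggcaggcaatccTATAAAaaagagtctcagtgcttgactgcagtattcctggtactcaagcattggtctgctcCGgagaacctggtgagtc
S100a4: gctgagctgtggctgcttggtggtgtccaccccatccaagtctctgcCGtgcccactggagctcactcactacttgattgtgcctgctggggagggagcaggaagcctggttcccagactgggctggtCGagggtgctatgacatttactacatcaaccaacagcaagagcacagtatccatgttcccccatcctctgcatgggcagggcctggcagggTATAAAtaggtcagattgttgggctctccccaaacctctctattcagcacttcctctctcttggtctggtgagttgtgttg
S100a11: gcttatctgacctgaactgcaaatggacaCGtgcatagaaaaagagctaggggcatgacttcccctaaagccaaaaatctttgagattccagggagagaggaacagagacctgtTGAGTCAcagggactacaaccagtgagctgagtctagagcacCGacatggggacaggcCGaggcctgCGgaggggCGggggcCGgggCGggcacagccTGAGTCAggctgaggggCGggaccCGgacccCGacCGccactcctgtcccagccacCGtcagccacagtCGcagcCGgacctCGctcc

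The promoters of the locus were poor in CG. The members had a median of 2 CG dinucleotides per promoter, against 7 over all 32851 promoters in the table. At most 5 were found in 40 of the 44 member promoters (90.91%), against 43.56% of all promoters, and none in 9 (20.45%), against 5.43%. All 29 promoters outside the S100A genes had at most 5, and the 4 exceptions were S100a6 with 6, S100a1 with 11, S100a13 with 14 and S100a11 with 15. GGGCGG, a sequence of CG-rich promoters, stood on either strand in 5 member promoters (11.36%), against 35.66% of all. These are descriptions of sequence, and DNA methylation was not measured.

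**Figure D1:**
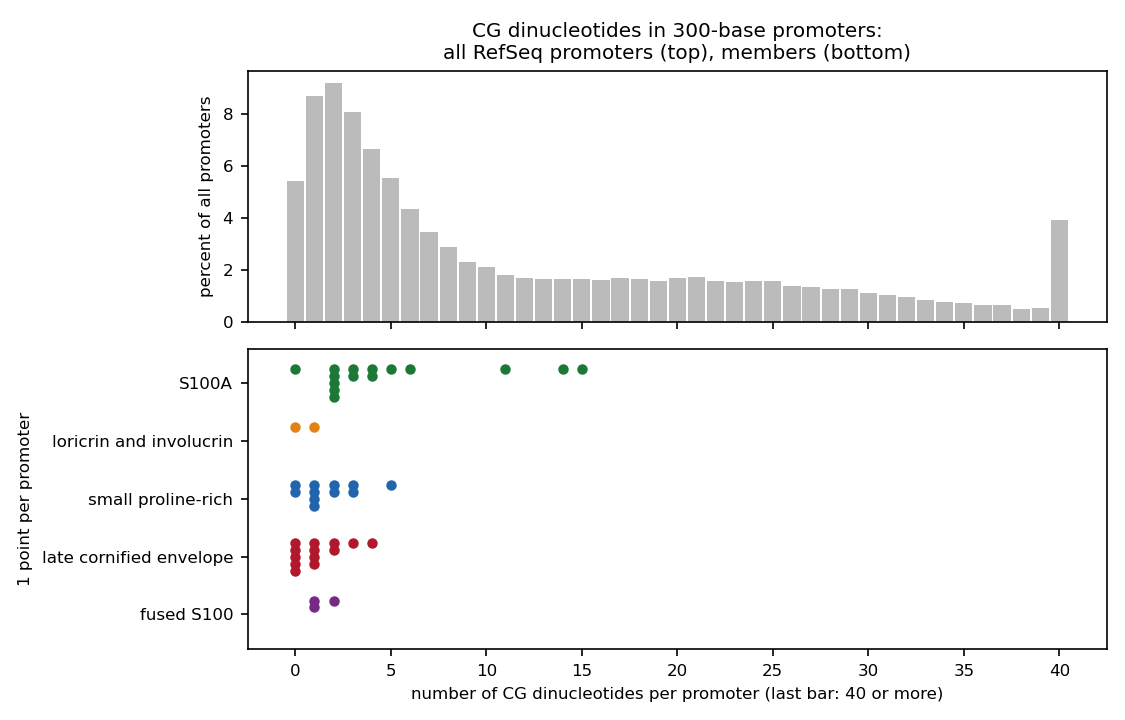
Number of CG dinucleotides per 300-base promoter (horizontal axis) as the percent of all RefSeq promoters (upper panel, last bar 40 or more) and as 1 point per member promoter, by role (lower panel). Only S100A promoters lie above 5, the highest at 15 (S100a11).

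The other sequence features split the locus by role. TATAAA was found on either strand in 19 member promoters (43.18%), against 13.62% of all promoters, and on the gene's strand with its first base 20 to 40 bases before the start in 16 (36.36%), against 1.99%. Of the 7 Sprr2 promoters, 6 had TATAAA with its first base exactly 29 bases before the start, and 6 had TGANTCA, which stood in 13 member promoters (29.55%) and in 7.81% of all. Of the 13 Lce promoters, 2 had TATAAA and 0 had TGANTCA. Both Lor and Ivl had both sequences. The Sprr2a entry, listed in RefSeq as Sprr2a1, had neither. A search for these letters in a window of 300 bases says nothing of which factor binds.

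Several features of the arrays bear on every value below. The deposited table gives log2 intensities in 6 columns named WT_1 to WT_3 and KO_1 to KO_3, already normalized between arrays by the authors, and the groups follow these column names. The probe for Mbd1 followed them: it read 8.83, 8.603 and 8.999 in the WT columns and 5.64, 5.61 and 5.60 in the KO columns, a log2 difference of -3.19 (SE 0.19, adjusted p = 5.3e-05, limma), the KO values being close to the background floors of 5.46 to 5.62. The ranks of 5 of the 6 columns equalled those of 1 scanner array exactly, but none of these arrays carried the title of its column, and 4 were titled with the other genotype. KO_1 equalled none. Through these matches, WT_1, KO_2 and KO_3 lay on slide 1 and WT_2 and WT_3 on slide 2, so that a fit with the slide as a block over these 5 columns compares KO_2 and KO_3 with WT_1 alone. Between 73.48% and 81.29% of probes were well above background on each array, and 0 spots were saturated. All 44 genes passed the filter of 3 or more arrays well above background. Of these, 42 passed on all 6 arrays, S100a7a on 5 and Lce3f on 4. On at least 1 array, 11 of the genes had a spot marked by the scanner software as uneven or as a population outlier, Sprr1a on all 6. These marks and the background counts are of the 6 scanner arrays, and KO_1 matched none of them.

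No gene of the locus passed the test for a difference between KO and WT. limma, with Benjamini-Hochberg adjustment over all 21989 genes tested, called 0 of the 44 members at an adjusted p under 0.05, where it called 36 of all genes (0.164%), of which 33 (0.15%) were higher and 3 (0.0136%) lower in KO. The lowest adjusted p of a member was 0.806 (S100a16). At an unadjusted p under 0.05 there were 8 members (18.2%), against 936 of all genes (4.26%). Of these members 3 were higher in KO, as were 2.38% of all genes, and 5 were lower, as were 1.88%. The authors' deposited table also lists 0 of the 44 with an FDR under 0.05, where 26 of its 41174 probes have one. The 95% confidence intervals of the members ran from -1.21 to 1.14 on the log2 scale, and for 32 of the 44 the interval lay wholly inside -1 to 1. With 3 columns against 3 an exact permutation test of 1 gene cannot give a p below 0.1. Nothing in the labels beyond the word biological says which mice or sorts the replicates came from.

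The values of the members lay to different sides by role. The median log2 difference, KO minus WT, was -0.15 over the 44 members and -0.0045 over all genes tested, with 26 members negative and 18 positive. The 14 Lce genes had a median of -0.39 with 12 negative, the pair Lor and Ivl -0.33 with both negative, the fused S100 genes -0.26 with 3 of 3 negative, and the 12 Sprr genes 0.0006 with 6 negative. The 13 S100A genes had a median of 0.13 with 3 negative. The KO and WT values did not overlap in 6 members (13.64%), against 8.33% of all genes. S100a16 and S100a4 lay above in KO, which 4.25% of all genes did, and Sprr2g, Hrnr, Lce1c and Ivl lay below, which 4.07% did. These signs belong to the column names, which the Mbd1 probe followed. Grouping by scanner title moves 4 of the 5 matched arrays to the other genotype, so turned signs there follow largely from its construction. With the scanner arrays grouped by their titles instead, on processed signal the Lce median was 0.48, the median over members 0.26 and that over all genes 0.11. After normexp background correction and quantile normalization the same medians were 0.32, 0.14 and 0.013. Without KO_2 the Sprr median was -0.15 with 10 of 12 negative, that of Lor and Ivl was -0.096 and that of the fused S100 genes -0.44. Without KO_1, 2 of the 3 fused S100 genes were negative. With the slide as a block, which rests on WT_1 as the only WT column of slide 1, the S100A median was 0.37.

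**Figure D2:**
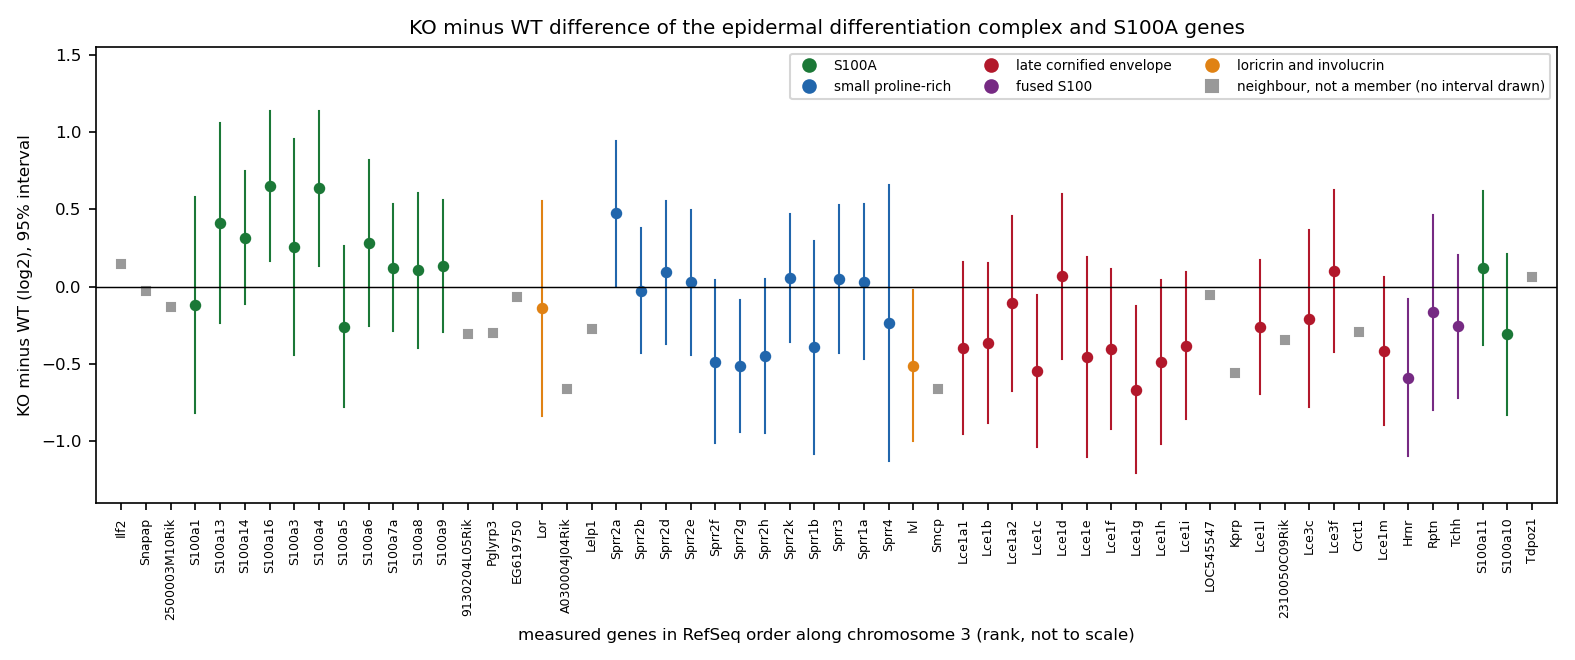
Log2 difference KO minus WT (vertical axis) for the 44 members, with 95% confidence intervals and coloured by role, and for 14 measured neighbours (grey squares, no interval), in RefSeq order along chromosome 3. Of the 38 measured genes from Lor to Tchh, 30 lie below 0, and of the 11 from S100a1 to S100a9, 9 lie above 0. Over all genes tested, 50.75% lie below 0.

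Along the chromosome, the negative values were not spread evenly. Between Lor and Tchh, 38 genes were measured, 30 of them negative, with a median of -0.32. Of all genes tested, 50.75% were negative. This stretch includes 7 genes that are not members, and all 7 were negative, with none passing the test: A030004J04Rik (-0.67), Smcp (-0.66), Kprp (-0.56), 2310050C09Rik (-0.35), Crct1 (-0.30), Lelp1 (-0.28) and LOC545547 (-0.052). Membership went by array symbol, and RefSeq names LOC545547 as Lce1j and A030004J04Rik as Prr9. Within the stretch, the Sprr block from Sprr2a to Sprr4 had 6 of 12 negative and a median of 0.0006. From Lce1a1 to Lce1m, 16 of 18 measured genes were negative. At the other end, from S100a1 to S100a9, 2 of 11 were negative and the median was 0.26. The measured genes between S100a9 and Lor are not members by symbol and were negative. They were 9130204L05Rik (S100a7l2 in RefSeq, -0.31), Pglyrp3 (-0.30) and EG619750 (-0.067). Neighbouring genes share arrays and sequence and are not independent points.

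Loricrin and involucrin are the structural proteins that anchor the cornified envelope, involucrin as its early scaffold and loricrin as its bulk. Ivl read 9.65, 9.24 and 9.32 in WT_1 to WT_3 and 9.19, 8.55 and 8.93 in KO_1 to KO_3. All KO values lay below all WT values, although KO_1 and WT_2 were only narrowly apart. Its log2 difference was -0.51 (SE 0.22, unadjusted p = 0.0418, adjusted p = 0.999), and -0.91 with the slide as a block. Lor read 11.45, 11.02 and 11.39 in WT and 10.93, 10.56 and 11.94 in KO. KO_3 was the highest of the 6 columns and KO_2 the lowest, so the groups overlapped, and the difference was -0.14 (SE 0.32). Without KO_2 it was 0.15.

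The fused S100 genes were negative too. Hornerin, a filaggrin-like protein of the upper epidermis, read 10.13, 9.51 and 9.83 in WT and 9.50, 8.93 and 9.28 in KO. Every KO value lay below every WT value, KO_1 by a narrow margin, and the difference was -0.59 (SE 0.23, adjusted p = 0.999). It was -1.03 with the slide as a block, which rests on WT_1 as its WT column, the highest of the 6 columns for Hrnr. A dimmer second probe of Hrnr gave -0.12. Trichohyalin, which stiffens the inner root sheath of hair, read 10.08, 10.04 and 10.21 in WT and 10.07, 9.49 and 9.999 in KO, a difference of -0.26 (SE 0.21) that rested on KO_2. Without that column it was -0.077, and its second probe gave 0.02. Repetin, another envelope precursor, read 9.01, 8.89 and 8.84 in WT and 8.31, 9.48 and 8.44 in KO, with KO_2 above and the other KO columns below every WT value. Its difference of -0.17 (SE 0.29) was -0.54 without KO_2 and 0.05 without KO_1. Filaggrin itself was reached through 2 probes annotated as similar to filaggrin, LOC675741. The brighter, which the Ensembl annotation names Flg, read 10.26, 9.94 and 10.605 in WT and 9.80, 10.14 and 9.70 in KO, a difference of -0.39 (SE 0.21), and the other gave -0.29. The probe that Ensembl names Flg2 was not well above background on any array.

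In the late cornified envelope genes, KO_2 and WT_3 lay farthest from the other columns. They encode small proteins added to the envelope late in cornification, and many of the 12 Lce1 genes are near-identical in sequence, so their probes may share signal. In Lce1g the values were 7.60, 7.36 and 7.69 in WT and 6.83, 6.45 and 7.36 in KO, a difference of -0.67 (SE 0.25, unadjusted p = 0.0198, adjusted p = 0.921). KO_3 reached the lowest WT value, and a second, dimmer probe of Lce1g gave -0.004. Lce1c read 8.04, 8.36 and 8.73 in WT and 7.84, 7.99 and 7.66 in KO. It was the only Lce gene whose groups did not overlap, although WT_1 and KO_2 were close, and its difference was -0.55 (SE 0.22, adjusted p = 0.999). With the slide as a block the Lce1c difference was -0.21. Lce1h read 10.03, 10.23 and 10.34 in WT and 9.87, 9.21 and 10.04 in KO, with KO_3 level with WT_1, a difference of -0.49 (SE 0.24) that was -0.24 without KO_2. Lce1m read 10.38, 10.497 and 10.58 in WT and 9.90, 9.84 and 10.48 in KO, a difference of -0.42 (SE 0.22), with KO_3 inside the WT range. Blocking on the slide gave -0.22 for Lce1m. The other 10 Lce genes lay between -0.46 (Lce1e) and 0.10 (Lce3f), and Lce3f was the only member at or under the background floor in any column.

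Across the 14 Lce genes, KO_2 was the lowest of the 6 columns in 11, where it was the lowest in 21.2% of all genes, and WT_3 the highest in 9, against 10.64% of all genes. The median deviation from a gene's own mean was -0.005 in WT_1, 0.15 in WT_2 and 0.38 in WT_3. It was -0.14 in KO_1, -0.47 in KO_2 and 0.13 in KO_3. KO_3 thus lay above WT_1 and close to WT_2. The median SD of an Lce gene was 0.19 in WT and 0.40 in KO, against 0.22 and 0.25 over all genes. The Lce median was -0.21 without KO_2, -0.26 without WT_3, -0.52 without KO_3 and -0.21 with the slide as a block.

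**Figure D3:**
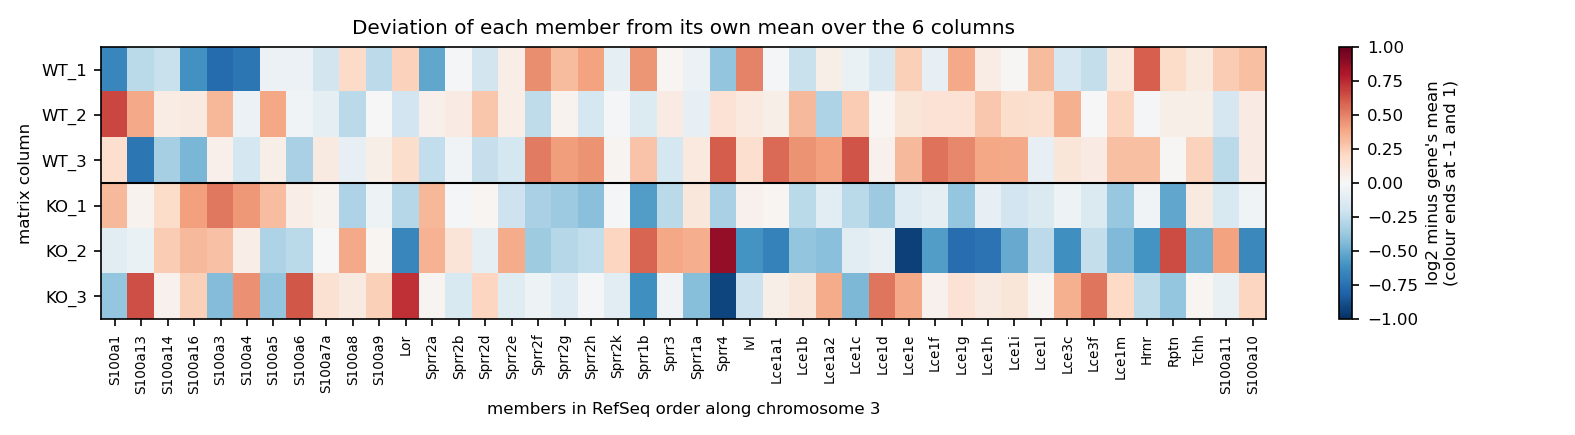
Deviation of each member (horizontal axis, in RefSeq order along chromosome 3) from its own mean in each matrix column (vertical axis), in log2 units, with colours ending at -1 and 1. The Lce genes are low in KO_2 (the lowest column in 11 of 14) and high in WT_3 (the highest in 9 of 14), while the Sprr genes are high in KO_2 (the highest in 8 of 12).

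The small proline-rich genes did not share a direction. They encode crosslinking bridges of the envelope and are also made by stressed and simple epithelia. Sprr2a read 13.64, 14.22 and 13.92 in WT and 14.50, 14.51 and 14.19 in KO. Only WT_2 reached into the KO range, and the difference was 0.47 (SE 0.21, unadjusted p = 0.0479, adjusted p = 0.999). A dimmer second probe of Sprr2a gave -0.21. Sprr2g lay the other way: 10.57, 10.29 and 10.67 in WT against 9.89, 9.97 and 10.12 in KO, with no overlap and a difference of -0.51 (SE 0.19, unadjusted p = 0.0225, adjusted p = 0.959). It was -0.52 with the slide as a block. Sprr2f read 9.64, 8.93 and 9.70 in WT and 8.86, 8.83 and 9.13 in KO, a difference of -0.49 (SE 0.24) with WT_2 inside the KO range, and -0.73 without WT_2. Sprr2h read 7.06, 6.48 and 7.11 in WT and 6.24, 6.41 and 6.65 in KO, a difference of -0.45 (SE 0.23), again with WT_2 inside the KO range.

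The remaining bright Sprr2 genes were nearly level. Sprr2b read 13.97, 14.06 and 13.95 in WT and 13.96, 14.11 and 13.83 in KO, a difference of -0.026 (SE 0.18) within a 95% interval of -0.43 to 0.38. Sprr2e read 13.56, 13.57 and 13.32 in WT and 13.29, 13.86 and 13.38 in KO, a difference of 0.027 (SE 0.21), with KO_2 the highest column. The Sprr2 genes are close copies of each other, and a probe may also read its relatives. A probe without a symbol that the Ensembl annotation names Sprr2j gave -0.41 (SE 0.20). Outside Sprr2, the 4 genes Sprr1a, Sprr1b, Sprr3 and Sprr4 lay between -0.39 (Sprr1b) and 0.05 (Sprr3). Sprr4 had the widest interval, -1.13 to 0.66, with KO values of 8.91, 10.11 and 8.32 around WT values of 8.84, 9.38 and 9.84. KO_2 was the highest column in 8 of the 12 Sprr genes, against 17.81% of all genes, in contrast to its place in the Lce genes.

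**Figure D4:**
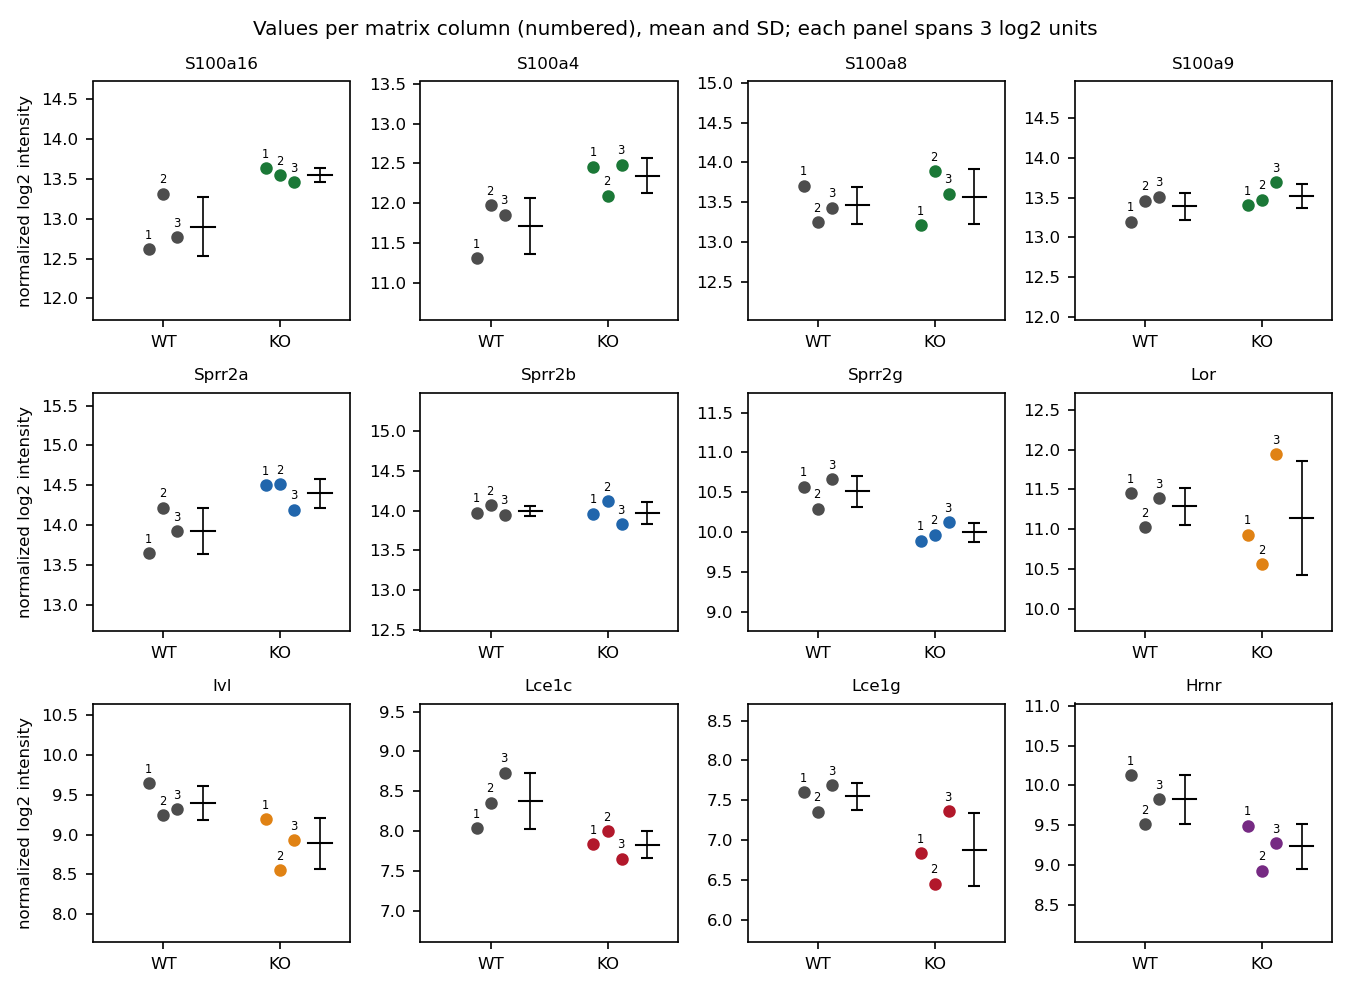
Normalized log2 intensity of 12 members in each column (points numbered 1 to 3 within WT and KO), with the mean and SD of the 3 columns beside them. Each panel spans 3 log2 units. S100a16, S100a4, Sprr2g, Ivl, Lce1c and Hrnr have no overlap between groups, and the other 6 do.

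The S100A genes held the 2 members with the lowest p-values. S100a16, a widely expressed calcium-binding protein, read 12.62, 13.32 and 12.77 in WT and 13.64, 13.55 and 13.46 in KO. The KO values lay close together and above every WT value, with a difference of 0.65 (SE 0.22, 95% interval 0.16 to 1.13, unadjusted p = 0.0135, adjusted p = 0.806). The S100a16 spot was marked as uneven or as a population outlier on 3 of the 6 scanner arrays. Those matched to WT_2 and WT_3 were among them. S100a4, known for its binding to non-muscle myosin in motile cells, read 11.31, 11.97 and 11.86 in WT and 12.46, 12.10 and 12.48 in KO. KO_2 was only narrowly above WT_2, and the difference was 0.63 (SE 0.23, 95% interval 0.13 to 1.14, unadjusted p = 0.0182, adjusted p = 0.88). Within slide 1 the differences were 0.89 for S100a16 and 0.98 for S100a4. The only WT column of slide 1 was WT_1, the lowest of the 6 columns for both genes. S100a4 is also made by lymphoid and myeloid cells, which sorting for CD45-negative cells is meant to remove. The thymocyte and T cell markers, of which 12 of 13 measured were positive and 0 passed the test, had a summed level (log2 of the summed intensities) of 11.73 to 12.13 in WT and 12.51 to 12.80 in KO. Of 13 measured markers of monocytes, macrophages and dendritic cells, 9 were positive, and their summed level was 15.32 to 15.44 in WT and 15.23 to 15.43 in KO. Of 5 markers shared by leukocytes, 4 were positive, and their summed level was 15.47 to 15.88 in WT and 15.98 to 16.16 in KO. The part of these lists in the S100a4 values was not tested.

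S100a8 and S100a9 form calprotectin, which neutrophils hold in bulk and stressed keratinocytes also make. S100a8 read 13.71, 13.25 and 13.43 in WT and 13.21, 13.89 and 13.61 in KO, a difference of 0.11 (SE 0.23) with full overlap, which ran from -0.056 without KO_2 to 0.29 without KO_1. S100a9 read 13.20, 13.46 and 13.51 in WT and 13.41, 13.47 and 13.69 in KO, a difference of 0.13 (SE 0.19) that was 0.39 when blocked on the slide, 0.038 without WT_1 and 0.05 without KO_3. The Ensembl annotation also assigns the S100a9 probe to S100a7a. The neutrophil markers had a median difference of -0.022 over 14 measured genes, and their summed level was 13.79 to 14.30 in WT and 13.76 to 14.21 in KO.

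The remaining S100A genes of high intensity overlapped between groups. S100a14, a protein of epithelia, read 13.61, 13.91 and 13.50 in WT and 14.02, 14.08 and 13.87 in KO, a difference of 0.32 (SE 0.19) in which only WT_2 reached the KO range. S100a6, which is bound by calcyclin-binding protein, read 13.46, 13.48 and 13.19 in WT and 13.59, 13.25 and 14.14 in KO, a difference of 0.28 (SE 0.24) that was 0.041 without KO_3 and 0.49 without KO_2. S100a11, a substrate of transglutaminase in keratinocytes, read 15.31, 14.89 and 14.79 in WT and 14.90, 15.46 and 14.98 in KO, a difference of 0.12 (SE 0.23) that was -0.052 without KO_2. S100a10, the partner of annexin A2, read 13.49, 13.28 and 13.28 in WT and 13.16, 12.55 and 13.40 in KO, a difference of -0.31 (SE 0.24) that was -0.067 without KO_2, -0.51 when blocked on the slide and -0.49 without KO_3. For S100a10, WT_1, the only WT column of slide 1, was the highest column. The other 5 S100A genes, S100a1, S100a3, S100a5, S100a7a and S100a13, lay between -0.26 (S100a5) and 0.41 (S100a13). From S100a1 to S100a9, WT_1 was the lowest column in 6 of 11 genes, against 22.56% of all genes.

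None of the genes that work with these proteins passed the test either. Of the 19 measured crosslinkers and partners of the cornified envelope, which include transglutaminases and suprabasal keratins, 14 were negative, with a median of -0.22. Krt2, a keratin of the upper epidermis, was at 0.77 (SE 0.20, adjusted p = 0.352), Krt1, the keratin of suprabasal cells, at -0.55 and the transglutaminase Tgm3 at -0.52. The 19 genes of the lipid barrier and of filaggrin processing had a median of 0.022. Among them were the desquamation protease Klk7 at 0.70, its inhibitor Spink5 at -0.54 and the peptidyl arginine deiminase Padi4 at 0.50. Padi4 also stands in the list of neutrophil markers, and its relatives Padi1 and Padi3 were at 0.12 and 0.024. The 22 transcription factors of epidermal differentiation had a median of -0.072, with Grhl1 at -0.54 and Ovol2 at 0.29. The 15 partners and receptors of S100 proteins had a median of -0.038, with Cd36, a receptor that can bind S100A8 and S100A9, at -0.35.

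Markers of cell types were read for the same columns, and 0 genes of these lists passed the test. The 15 measured mTEC markers had a mean level of 12.16 to 12.28 in WT and 12.17 to 12.29 in KO. The 9 measured markers of cornifying mTECs, some of which are in the lists above, had 7 negative members and a mean level of 10.78 to 10.94 in WT and 10.55 to 10.69 in KO, with summed levels of 15.01 to 15.07 and 14.81 to 15.01. Klk7, the marker of smallest p in this list, went the other way, at 0.70 with every KO value above every WT value. The part of these markers in the Lce, Ivl and Hrnr values was not tested. In sorted bulk RNA, a change in the number of cornifying cells and a change in RNA per cell cannot be told apart. Of 10 markers of cortical thymic epithelium, 9 were positive with a median of 0.21, and their summed level was 15.39 to 15.59 in WT and 15.72 to 15.92 in KO. The 11 measured B cell and plasma cell markers had a median of 0.13, the largest value being 2.49 for Igh-6 (SE 0.49, adjusted p = 0.119). No measured gene of these lists lay at or under the background floor in all 6 columns.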

How the data were processed

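RNA of sorted mTECs was hybridised to 1-colour Agilent arrays, 3 titled WT and 3 titled KO. The values analysed were the authors' deposited table of log2 intensities, which have equal quartiles in the 6 columns; the normalization tool is not given in the sources used here. Scanner images were read with Agilent Feature Extraction 10.6 per the submitters' processing notes and 10.7.3.1 per the file headers, which give processed intensity per spot. The authors' deposited table also gives a fold ratio, p-values and a log-odds score, of which only the log2 ratio and FDR were used here; their log2 ratio equalled the fitted one within 0.001 for all 44 members.

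Genes were fitted with limma 3.58.1 (lmFit and eBayes, R 4.3.3) on the brightest probe per gene, kept where well above background on at least 3 of 6 arrays, with Benjamini-Hochberg adjustment at 0.05. The background floor of a column is the 95th percentile of 5198 probes never well above background. In simulated data for this comparison over 21989 genes, 29% of genes with a log2 change of 1 and 90% of genes with a log2 change of 2 were recovered, with 6 false calls. Members, gene lists and tests were chosen with earlier results of these data known. Members given with values per column were the 12 of smallest p, the 10 of highest mean level, Lor, Ivl, Hrnr, Rptn, Tchh, S100a8 and S100a9; from each list, up to 3 genes of smallest p were named. Sprr4, the neighbours and the probes without a member symbol were added after their values were seen. The alternatives tried are in the closing section. The number of arrays limits the precision, and p-values measure the spread between these arrays. Genome coordinates of the table were not used, since their build is not stated beyond mm9 in the scanner headers.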

Additional observations from a re-analysis of the deposited data

How the results depend on the processing

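Under all 16 other settings, limma called 0 of the members; the lowest adjusted p of a named member was 0.295, without KO replicate 3. Among the 23 named members, 17 kept their direction under every setting on the deposited table. Leaving out 1 column at a time, the median of the members ran from -0.16 to -0.079 and the members without overlap from 8 to 21 (6 with all columns), while 15.21% to 23.04% of all genes then had no overlap. Without KO_3, 21 of the 44 members had no overlap, against 15.21% of all genes. Without KO_2, 9 of the 44 had none, against 23.04%. Genes called over the whole table were 17 to 56 (36 with all columns). They were 19 without the filter on dim probes. With the replicate number as a block they were 58, and 0 members passed. Same-numbered WT and KO columns had deviations correlated at -0.28, -0.18 and -0.33, which gave no sign of pairing. The labels do not say what the numbers mean, so this check cannot settle whether they pair the samples. With the slide as a block over 5 columns, 0 of all genes passed in limma (1464 at an unadjusted p under 0.05), the median of the members was -0.025, S100a11 was at -0.086 and Sprr2b at 0.0005. Signs that turned without 1 column were Sprr2b without WT_2 (0.0083) and KO_3 (0.043; range -0.099 to 0.043), S100a8 without WT_2 (-0.0014) and KO_2 (-0.056; range to 0.29), Sprr2e without WT_3 (-0.054) and KO_2 (-0.15; range to 0.14), Rptn without KO_1 (0.049; range from -0.54), and S100a11 (-0.052; range to 0.28) and Lor (0.15; range from -0.54) without KO_2. The causes were not tested.

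With the scanner arrays grouped by title, 40 members had a value, 0 of all genes passed in limma and the unadjusted counts were 915 on processed signal and 658 after normexp. The median of the members was 0.26 and 0.14. On processed signal 5 members had no overlap, against 10.54% of all genes. With normexp 3 members had none, against 9.17%. Overlap was read only for genes with a value on all 6 arrays. Spots marked as uneven or as population outliers were left out here, so S100a6 and S100a8 compare 1 array with 1. S100a16 was marked on every array titled KO and so had no difference in this grouping. S100a11 has 1 WT array, Lor has 1 KO array, and S100a4, S100a10 and S100a11 have 2 arrays in 1 group. These signs carry little weight. On processed signal the values that turned sign were Lce1g 0.33, Sprr2g 0.22, Hrnr 0.13, Lce1c 0.85, Ivl 0.13, Lce1h 0.48, Sprr2f 0.038, Sprr2h 0.14, Lce1m 0.33, S100a11 -0.43, S100a6 -1.03, S100a8 -0.35, S100a10 0.35, Lor 0.63 and Tchh 0.34. After normexp they were S100a4 -0.040, Lce1g 0.14, Sprr2g 0.13, Hrnr 0.044, Lce1c 0.56, Ivl 0.026, Lce1h 0.38, Lce1m 0.23, S100a11 -0.61, S100a14 -0.024, S100a6 -0.93, S100a8 -0.46, S100a10 0.38, Lor 0.54 and Tchh 0.27. 4 of the 5 matched arrays change genotype in this grouping, so turned signs follow largely from its construction. The Mbd1 probe followed the column names. Normexp on the mean signal was not run because the files used here give a median signal, and normexp on that was chosen after seeing the data. So was detection on spots without either mark, uneven or population outlier, which left 39 members with a median of -0.24. Signal over background limits Lce3f and S100a7a most.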
